A study of Mus musculus with 18 samples.

Results

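IP14D-1 and IP20D-3 are mouse induced pluripotent stem (iPS) cell lines, that is, lines of embryonic-stem-like cells made by reprogramming somatic cells. They carry one strain label, B6 x D2 F1, the first-generation cross of the B6 and D2 strains. The comparison set the 3 arrays titled IP14D-1 against the 3 titled IP20D-3, which are 6 of the 18 expression arrays used here. The other 12 arrays came from the iPS lines IP36D-3 (B6 x D2 F1) and IP14D-101 (B6 x 129S2 F1) and from the embryonic stem (ES) lines ESC2 (B6 x D2 F1) and R1 (129X1/SvJ x 129S1 F1), with 3 arrays each. All 6 lines were grown with the cytokine LIF on mouse embryonic fibroblasts whose division had been stopped with mitomycin C. The medium contained fetal bovine serum or Knockout serum replacement, and which line had which is not stated in the labels, so line and medium cannot be told apart. Each group is 1 line, the number in its name is not explained in the labels, and neither the reprogramming factors nor the passage is given there. The series calls the 3 arrays of a line biological replicates without naming separate cultures, so the p-values measure only the spread between these arrays.

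Mouse pluripotent cells are held by a network of transcription factors around Oct4 (the product of Pou5f1), Sox2 and Nanog. In the naive state, which resembles the epiblast before implantation, LIF acting through Stat3 and factors such as Tfcp2l1, Tbx3, Klf4 and Prdm14 support that network. In the primed state, which resembles the epiblast after implantation, FGF and Nodal signalling dominate and genes such as Fgf5, Otx2, Pou3f1 and the de novo DNA methyltransferases are raised. Pluripotent lines also differ in imprinted regions, where one parental copy of a gene is silenced. The Dlk1-Dio3 region of chromosome 12, whose noncoding transcripts Meg3, Rian and Mirg come from the maternal copy, is a known site of such variation among mouse iPS lines.

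Values below are log2 probe set intensities for the 3 arrays of a line, or log2 differences (IP14D-1 minus IP20D-3) with the standard error of the limma model. A gene was called when its Benjamini-Hochberg adjusted p was under 0.05 and its difference was at least 1, which is a 2-fold difference of intensity. Of 18193 genes, 902 were called, a background of 4.96%, and the p threshold removed no gene that had passed the fold threshold. They comprised 392 genes higher in IP14D-1 (2.15%) and 510 lower (2.8%), and the arrays of the 2 lines did not overlap for any of the 902. An adjusted p under 0.05 alone held for 8501 genes (46.7%), and the arrays of the lines were apart in 10041 genes (55.2%), so neither of these singles a gene out. A difference of at least 2 was reached by 81 genes (0.445%), 47 higher and 34 lower. The median difference over all genes was 0.03. Among the called genes, 391 had a level under the median gene (5.91) in their lower line, where intensities lie close to background and folds are compressed.

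**Figure D1:**
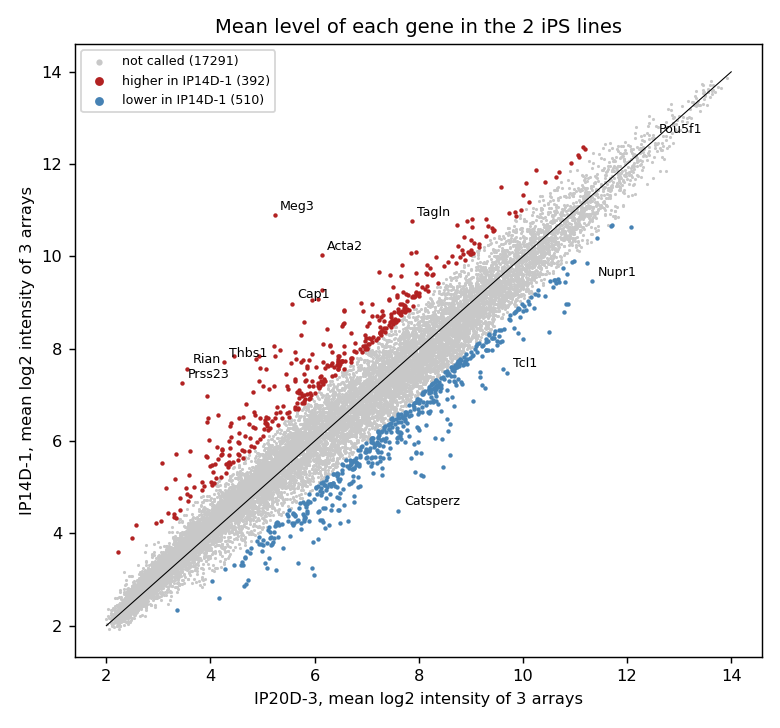
Mean log2 intensity of each of 18193 genes in IP20D-3 (horizontal axis) and IP14D-1 (vertical axis), with 3 arrays per line. Points are genes, red where called higher in IP14D-1 (392), blue where called lower (510) and grey otherwise, and the line marks equal levels; Meg3 and Acta2 lie farthest above it at high levels and Pou5f1 lies on it.

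Across all genes, arrays of 1 line correlated at r = 0.9956 to 0.9977 and arrays of the 2 lines at 0.9772 to 0.9833, a description over genes, which are not independent replicates. Beta-actin probe sets at the 3' end over those at the 5' end gave 1.27 ± 0.019 (SD, n = 3) in IP14D-1 and 1.28 ± 0.0233 in IP20D-3 (two-sided exact permutation p = 0.5). The same ratio for Gapdh was 0.941, 0.978 and 0.964 in IP14D-1 and 0.896, 0.896 and 0.935 in IP20D-3, without overlap. The 18S ribosomal control differed, with linear intensities of 71.7, 88.5 and 76.9 in IP14D-1 and 178, 250 and 540 in IP20D-3, as did the BioB hybridisation spike (152 ± 21.4 against 249 ± 45.8). The Gapdh, 18S and BioB values each gave p = 0.1 by the same exact permutation test, the smallest that 3 arrays against 3 allow, and the part of these differences in the results was not tested.

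The identity of the lines as pluripotent cells was checked first. Pou5f1 read 12.55, 12.5 and 12.61 in IP14D-1 and 12.52, 12.54 and 12.44 in IP20D-3, a difference of 0.05 ± 0.08 (adjusted p = 0.589). Sox2, its DNA-binding partner, differed by -0.02 ± 0.08 and Klf4 by -0.13 ± 0.07. Nanog was slightly lower in IP14D-1, with 11.56, 11.69 and 11.47 against 11.85, 11.87 and 11.7, a difference of -0.23 ± 0.08 (adjusted p = 0.0299) that is far from the fold threshold. The endoderm regulators Gata4, Gata6 and Sox17, the trophoblast factor Elf5 and the neural factor Sox1 had mean levels between 2.9 and 5.08 in both lines, under the median gene. Other lineage markers were not all low. The neural gene Olig2 had means of 7.05 and 6.9, above the median gene in both lines, and Pax6 had 5.66 and 6.04. Cdx2, a trophoblast factor under the median gene, was called higher in IP14D-1 (1.11 ± 0.11). That call ended with the mean of its probe sets (0.92) and with 16 added to the intensities (0.72). The pluripotency markers were thus high in both lines, and the markers of other lineages were mixed.

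Meg3 and Rian of the Dlk1-Dio3 imprinted region had the largest differences of the named genes. All 4 measured genes of the region were higher in IP14D-1 (4 of 4 called, against 2.15% of all genes), with a median difference of 3.44. Meg3, a maternally expressed long noncoding RNA, read 10.81, 10.97 and 10.9 in IP14D-1 and 5.33, 5.11 and 5.24 in IP20D-3. The difference of 5.67 ± 0.16, or 50.8-fold, was the largest of all genes (adjusted p = 1.44e-13). In IP20D-3 every array was under the median gene, and in IP14D-1 every array was far above it. All 11 Meg3 probe sets were higher in IP14D-1, by 0.86 to 6.79. The 250 bases before the Meg3 start, at chr12:109540746-109540995 on the plus strand of GRCm38.p6 (RefSeq), are shown because this is the promoter of the gene that differed most. Capitals mark 2 overlapping matches to the TATA box letters TATAAA, one on each strand, the first beginning 29 bases before the start, and the stretch holds 10 CpG dinucleotides with 52.4% G and C. Such a match on either strand was present in 13.6% of the 32851 promoter windows of the RefSeq table (250 bases before to 50 after a start).

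Meg3: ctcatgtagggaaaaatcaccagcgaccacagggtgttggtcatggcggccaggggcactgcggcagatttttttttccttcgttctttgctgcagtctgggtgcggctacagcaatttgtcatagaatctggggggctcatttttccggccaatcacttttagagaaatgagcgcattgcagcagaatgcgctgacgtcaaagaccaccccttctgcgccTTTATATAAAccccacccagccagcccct

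Rian, a noncoding transcript downstream of Meg3 that carries small nucleolar RNAs, read 7.43, 7.37 and 7.92 against 3.52, 3.68 and 3.45, a 16.3-fold difference (4.02 ± 0.18, adjusted p = 2.06e-11). Mirg, which carries a cluster of microRNAs, read 8.15, 8.1 and 7.95 against 4.99, 5.18 and 5.46, a 7.24-fold difference (2.86 ± 0.17, adjusted p = 6.84e-10). The 4 probe sets of Rian (2.93 to 4.57) and the 2 of Mirg (2.86 to 4.4) were all higher in IP14D-1. Dlk1, the protein-coding Notch-family ligand expressed from the paternal copy, read 7.3, 7.07 and 7.19 against 5.02, 5.47 and 5.15 (1.97 ± 0.13, 3.92-fold, adjusted p = 1.56e-09). Its second probe set, which lay under the median gene in both lines, differed by -0.18, and Dlk1 was not called with the mean of both (0.89). Genes known as maternally and as paternally expressed were thus both higher in IP14D-1 by their brightest probe sets.

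In the RefSeq gene intervals, Mirg holds 10 microRNA hairpins with 19 mature sequences, Rian 3 with 6 and Meg3 1 with 3. The arrays measured the host transcripts and none of these microRNAs. Examples from Mirg are shown with the seed (bases 2 to 8) in capitals: miR-453 and miR-496a-5p, the only pair of the 3 hosts that shares a seed, and miR-369-3p and miR-410-3p, whose seeds are theirs alone among the 3 hosts.

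mmu-miR-453: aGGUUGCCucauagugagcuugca
mmu-miR-496a-5p: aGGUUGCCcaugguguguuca
mmu-miR-369-3p: aAUAAUACaugguugaucuuu
mmu-miR-410-3p: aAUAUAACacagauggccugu

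Set beside the other lines, the low line was IP20D-3. Mean Meg3 was 5.23 in IP20D-3 and 5.9 in IP36D-3, against 9.71 in IP14D-101, 10.19 in R1, 10.89 in IP14D-1 and 11.34 in ESC2. Rian gave the same division, with 3.55 and 3.71 in IP20D-3 and IP36D-3 and 6.12 to 7.82 in the other 4 lines. Dlk1 did not, since ESC2 had 5.84, close to IP36D-3 at 5.65.

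Imprinted genes elsewhere in the genome went in both directions. Of 37 measured, 5 were called higher in IP14D-1 and 1 lower (16.2%, against 4.96% of all genes), with a median difference of 0.19. Nnat, a paternally expressed membrane proteolipid gene, read 9.05, 9.03 and 9.11 against 5.81, 5.79 and 6.24, an 8.68-fold difference (3.12 ± 0.12, adjusted p = 5.06e-12). Peg10, a paternally expressed gene derived from a retrotransposon, read 6.04, 5.91 and 6.12 against 3.71, 4.26 and 3.94 (2.05 ± 0.16). Every IP14D-1 array was above every IP20D-3 array for both, as it was for all genes called higher. Peg3, a zinc finger gene, was 2.51-fold higher (11.3, 11.35 and 11.36 against 9.91, 9.97 and 10.15), although the mean of its 5 probe sets differed by 0.85, under the threshold. Mest differed by 1.1 ± 0.07, and Nap1l5, which was under the median gene in both lines, by 1.1 ± 0.11. The Nap1l5 call ended with 16 added to the intensities (0.54) and with repeated quantile normalisation (1.0). Grb10, an adaptor that restrains growth factor receptors, was the exception, with 10.66, 10.8 and 10.56 in IP14D-1 against 11.71, 11.66 and 11.76 in IP20D-3 (-1.03 ± 0.08). That call ended without IP14D-1 replicate 3 (-0.98) and with repeated quantile normalisation (-0.97). The 3 Grb10 probe sets ranged from -2.44 to -1.03, so the brightest one gave the smallest difference. Igf2 differed by 0.77 ± 0.13 and Snrpn by 0.07 ± 0.1, and neither was called.

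Genes that protect imprints or methylate DNA were called in 4 of 18 cases (22.2%, against 4.96% of all genes), 3 higher and 1 lower. Zfp57, a zinc finger protein that keeps methylation at imprinted regions, read 8.7, 8.61 and 8.8 in IP14D-1 and 6.95, 7.04 and 7.34 in IP20D-3, a 3.01-fold difference (1.59 ± 0.09, adjusted p = 5.26e-10). The lowest line for Zfp57 was ESC2 (6.26), which had the highest Meg3, so the order of the lines was not that of Meg3. Dnmt3b, a de novo DNA methyltransferase, read 11.67, 11.52 and 11.65 against 10.42, 10.47 and 10.41 (1.18 ± 0.07). Dnmt3a, the second such enzyme, differed by 1.3 ± 0.12, but its 5 probe sets ranged from -0.6 to 1.61 and their mean (0.62) was not called. Dnmt3l, the cofactor of both, differed by 0.68 ± 0.08 (adjusted p = 3.29e-06) and Dnmt1, the maintenance enzyme, by 0.25 ± 0.07, both under the fold threshold. Tet2, which oxidises methylated cytosine, was lower in IP14D-1 (8.67, 8.63 and 8.66 against 9.79, 9.67 and 9.74, -1.08 ± 0.13), and was not called with repeated quantile normalisation (-0.98). Trim28, the corepressor that works with Zfp57, differed by 0.06 ± 0.07. Of 23 Polycomb genes 1 was called, Pcgf2 (1.12 ± 0.11), a share of 4.35% against 4.96% of all genes. Pcgf2 was not called with the mean of its probe sets (0.85).

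**Figure D2:**
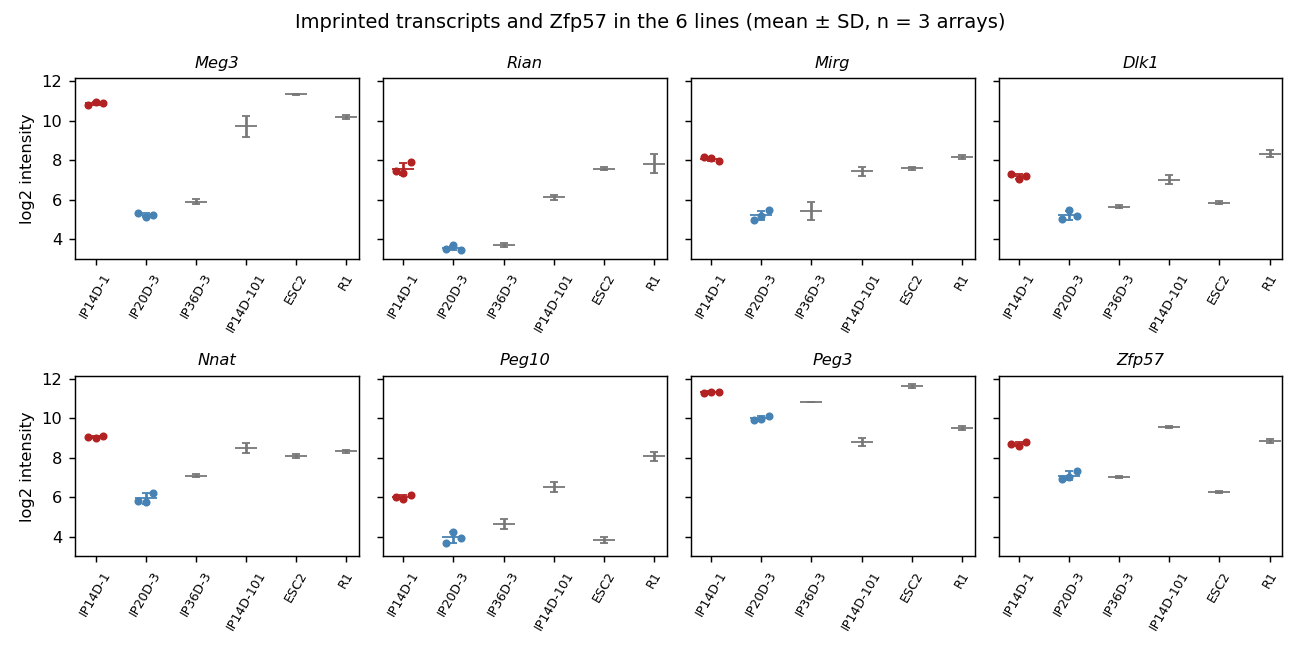
Log2 intensity of 7 imprinted transcripts and Zfp57 in the 6 lines. Horizontal bars are means with SD over n = 3 arrays, and points are the single arrays of IP14D-1 (red) and IP20D-3 (blue); Meg3, Rian and Mirg are low in IP20D-3 and IP36D-3, and Dlk1 and Peg10 are also low in ESC2.

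The pluripotency genes split into a shared core and a set that differed. Among 33 naive and core genes, 6 were lower in IP14D-1, 1 was higher and 26 were not called, with a median difference of -0.16. The called share was 21.2%, against 4.96% of all genes. Tcl1, a coactivator of Akt signalling, read 7.5, 7.49 and 7.45 in IP14D-1 and 9.78, 9.79 and 9.52 in IP20D-3, a 4.66-fold difference (-2.22 ± 0.09, adjusted p = 7.86e-12). Pecam1, a cell adhesion molecule used as a surface marker of naive cells, read 7.21, 7.4 and 7.02 against 9.22, 9.24 and 9.19 (-2.01 ± 0.1). Prdm14, which represses FGF receptor signalling and DNA methyltransferases, read 6.86, 7.09 and 6.89 against 8.03, 8.32 and 8.37 (-1.29 ± 0.1). The arrays of the 2 lines were apart for each of these, as they were for every called gene and for 55.2% of all genes. Tbx3 (-1.14 ± 0.11) and Tfcp2l1 (-1.18 ± 0.09), both transcription factors of the naive network, and the junction protein gene Jam2 (-1.23 ± 0.09) completed the 6. The 5 Jam2 probe sets ranged from -1.8 to -0.96, whereas the mean of the 3 Tfcp2l1 probe sets, 2 of which lay near the bottom of the scale, differed by -0.47. Nr0b1 (-0.82 ± 0.07), Fgf4 (-0.96 ± 0.09) and Zfp42 (-0.68 ± 0.07) were lower at an adjusted p under 0.05 without reaching the fold threshold, Esrrb differed by -0.16 ± 0.1 and Utf1 by 0.68 ± 0.08 the other way. The gene called higher was Gbx2, a homeobox target of Stat3, with 7.84, 7.53 and 8.4 against 5.72, 5.68 and 5.5 (2.29 ± 0.15, 4.89-fold).

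Genes of the primed epiblast were higher in IP14D-1. All 23 measured had a difference above 0, and 13 were called higher and 0 lower (56.5%, against 4.96% of all genes). The median difference was 1.06 against 0.03 over all genes. The list was chosen with these results known, and 8 of its called genes are counted again in other lists: Dnmt3a and Dnmt3b (methylation), Etv5 and Fgf5 (FGF and ERK), Fst (Nodal), Lef1 (Wnt), and Cdh2 and Krt18 (epithelial and mesenchymal, with Krt18 also in trophectoderm). The counts of those lists are not separate from this one. Epha1, an ephrin receptor, read 7.79, 7.68 and 8.08 in IP14D-1 and 5.41, 4.9 and 5.41 in IP20D-3, a 6.11-fold difference (2.61 ± 0.12, adjusted p = 3.28e-11). Pou3f1, the Oct6 transcription factor of the post-implantation epiblast, read 8.58, 8.23 and 8.78 against 6.35, 6.69 and 6.59 (1.99 ± 0.14). Pim2, a kinase that promotes survival, read 10.73, 10.56 and 10.79 against 8.52, 8.53 and 9.18 (1.95 ± 0.13). In all 3, the lowest IP14D-1 array was above the highest IP20D-3 array, which holds for any gene called higher. Fgf5, the classical primed epiblast ligand, was low in both lines, with 5.45, 5.12 and 5.96 against 3.77, 3.99 and 4.52 (1.42 ± 0.21), and was not called with the mean of its probe sets (0.92) or with 16 added to the intensities (0.9). Otx2, a homeobox factor of the forebrain and epiblast, differed by 1.34 ± 0.16, Lef1, a Wnt effector, by 1.39 ± 0.13, Sall2 by 1.62 ± 0.19, and Krt18, an epithelial keratin, by 1.64 ± 0.16. Leaving out each array in turn gave 12 to 14 called members. The mean level of the list was 8.03 ± 0.13 (SD, n = 3) in IP14D-1 and 6.9 ± 0.08 in IP20D-3, while the other 4 lines had means of 7.61 to 8.17, so that IP20D-3 was the lowest of the 6 lines. Fibroblast markers, given below, moved in the same direction, and their part in this result was not tested.

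**Figure D3:**
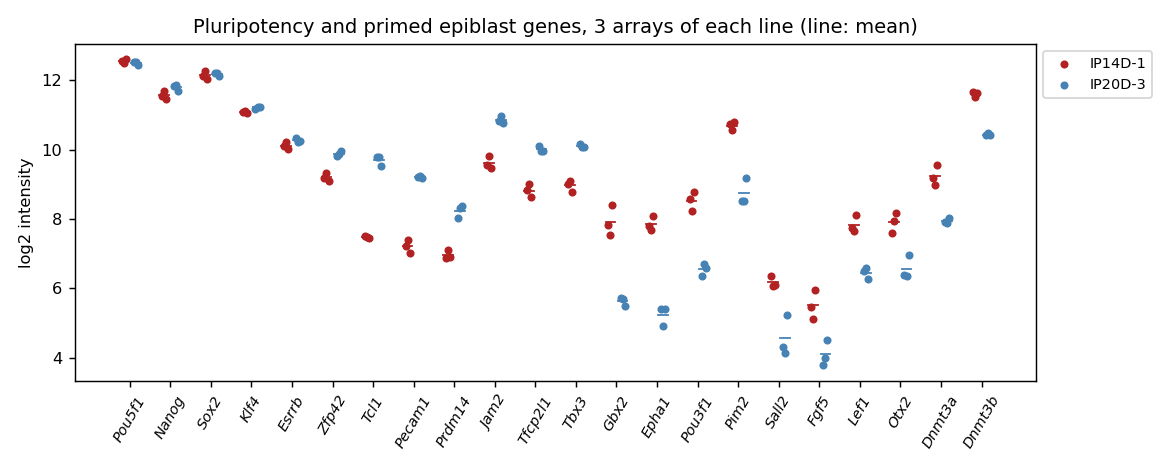
Log2 intensity of 22 pluripotency and primed epiblast genes on each of the 3 arrays of IP14D-1 (red) and IP20D-3 (blue), with short lines at the means. Pou5f1, Sox2 and Klf4 differ by at most 0.13, the genes from Tcl1 to Tbx3 are higher in IP20D-3, and those from Gbx2 to Dnmt3b are higher in IP14D-1.

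In the signalling pathways that act on this state, more of the called genes were higher in IP14D-1 than lower. For FGF and ERK signalling 8 of 29 genes were higher and 0 lower (27.6% called, against 4.96% of all genes, median 0.53). Fgfbp1, a carrier that releases stored FGF, had the largest difference of the list, with 7.77, 7.79 and 7.97 against 4.34, 4.28 and 4.73 (3.4 ± 0.11, 10.5-fold). The receptor Fgfr1 differed by 1.17 ± 0.07 (0.69 with the mean of its probe sets), and targets and feedback inhibitors of ERK followed, among them Dusp5 (1.26 ± 0.08), Etv5 (1.06 ± 0.07) and Spred2 (1.24 ± 0.09). Of these, Etv5 (0.84) and Spred2 (0.49) were not called with the mean of all probe sets, under which the list had 5 called members. The immediate targets Fos (-0.4 ± 0.1) and Egr1 (-0.73 ± 0.17) had negative differences and were not called. For Nodal, Activin and BMP signalling 7 of 31 genes were higher and 0 lower (22.6% called, median 0.4). Lefty1, a secreted Nodal inhibitor and target, read 10.81, 10.84 and 10.77 against 9.5, 9.3 and 9.1 (1.51 ± 0.13), and the inhibitory Smad7 read 9.79, 9.63 and 9.79 against 8.28, 8.24 and 8.13 (1.52 ± 0.08). The receptor Acvr2b (1.09 ± 0.08), the corepressor Skil (1.12 ± 0.11) and the Activin antagonist Fst (1.23 ± 0.17) were also called. The mean of all probe sets ended the calls of Smad7 (0.9), Acvr2b (0.7) and Skil (0.85). The ligand Nodal differed by only 0.05 ± 0.09, its co-receptor Tdgf1 by 0.34 ± 0.07, and Lefty2 by 0.14 ± 0.18. Under that mean 2 members of the list were called.

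Wnt signalling had 8 of 43 genes higher and 1 lower (20.9% called, against 4.96% of all genes, median 0.5). Sp5, a zinc finger target of beta-catenin, read 8.0, 7.87 and 8.07 in IP14D-1 and 5.15, 5.5 and 5.38 in IP20D-3, a 6.22-fold difference (2.64 ± 0.15, adjusted p = 4.64e-10). Axin2, a feedback inhibitor induced by the same pathway, read 7.88, 7.58 and 7.86 against 5.61, 5.15 and 6.14 (2.14 ± 0.16). The receptor Fzd2 read 7.69, 7.72 and 7.88 against 5.97, 5.65 and 6.04 (1.87 ± 0.1). The array groups did not overlap for any of them, which was also so for all other called genes and for 55.2% of all genes. The ligands Wnt8a (1.68 ± 0.16) and Wnt4 (1.12 ± 0.16) were also higher, and neither was called with 16 added to the intensities (0.95 and 0.89). The Wnt4 call also ended without IP20D-3 replicate 3 (0.89). Sfrp1, a secreted Wnt antagonist, was the 1 lower gene, with 7.25, 7.46 and 7.23 against 8.7, 8.6 and 8.74 (-1.37 ± 0.08). Ctnnb1, beta-catenin itself, differed by -0.07 ± 0.07. For Sp5, IP14D-1 (7.98), ESC2 (7.82) and R1 (8.42) were high, and IP20D-3 (5.34), IP14D-101 (5.64) and IP36D-3 (6.21) were low.

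In the LIF and STAT3 list, 3 of 22 genes were higher and 1 lower (18.2% called, against 4.96% of all genes). The receptor-proximal genes Stat3 (-0.23 ± 0.08) and Socs3 (0.11 ± 0.14) were not called. Besides Gbx2 and Tfcp2l1 the called genes were Gadd45g, a growth arrest gene (1.85 ± 0.16), and Ier3 (1.01 ± 0.12). The Ier3 call was lost without IP14D-1 replicate 3 or IP20D-3 replicate 3 (0.89 for the latter). Myc, a growth-promoting transcription factor, read 8.47, 8.34 and 8.7 in IP14D-1 and 6.89, 7.11 and 7.0 in IP20D-3 (1.5 ± 0.09, 2.84-fold). Max, its dimer partner, differed in the opposite direction, with 6.42, 6.19 and 6.6 against 7.69, 8.01 and 7.62 (-1.37 ± 0.16). Mycn differed by 0.47 ± 0.1, or by -0.19 with the mean of its probe sets. Of 30 genes of the Myc family and its growth targets, 3 were higher and 1 lower (13.3% called, against 4.96% of all genes, median 0.28). Besides Myc and Max, the called genes were Cad, the first enzyme of pyrimidine synthesis (1.35 ± 0.08), and Ccnd2, cyclin D2 (1.21 ± 0.13). Ccnd2 was not called with the mean of its probe sets (0.94). Npm1, the brightest gene of the list, differed by -0.06 ± 0.07.

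The list with the largest share of called genes, apart from the imprinted region, held contractile and cytoskeletal genes. It joined targets of serum response factor (Srf) and of the YAP coactivator with members of these pathways, Srf and Yap1 among them. These factors respond to actin assembly, cell shape and serum. Of 29 genes, 19 were higher in IP14D-1 and 0 lower (65.5%, against 4.96% of all genes), and the median difference was 1.31. Acta2, smooth muscle actin, read 9.98, 10.14 and 9.98 in IP14D-1 and 6.27, 6.0 and 6.15 in IP20D-3, a 14.8-fold difference (3.89 ± 0.1, adjusted p = 9.28e-14). Its 2 other probe sets lay near the bottom of the scale in both lines and differed by -0.02 and 0.18. Thbs1, the matrix protein thrombospondin 1, read 7.69, 7.69 and 7.76 against 4.34, 4.5 and 3.94 (3.45 ± 0.13, 10.9-fold). Anxa1, a membrane-binding annexin, read 9.15, 9.33 and 9.32 against 6.48, 6.52 and 5.44 (3.12 ± 0.19). Tagln, an actin cross-linker, read 10.71, 10.76 and 10.81 against 8.04, 8.05 and 7.52 (2.89 ± 0.12). IP20D-3 replicate 3 was the lowest array for Thbs1, Anxa1 and Tagln, and without each array in turn the list had 18 to 20 called genes.

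Regulators of actin followed, with Cald1, caldesmon, higher by 2.22 ± 0.12, Flna, filamin A, by 1.61 ± 0.08, Tpm1, a tropomyosin, by 1.22 ± 0.08, and Cnn1, calponin 1, by 1.34 ± 0.19. The matricellular YAP targets Ccn1 (9.8, 9.76 and 9.87 against 7.79, 7.76 and 7.5, 2.13 ± 0.09) and Ccn2 (1.52 ± 0.08) were called, as were Axl, a receptor kinase (1.91 ± 0.12), Amotl2, an angiomotin (1.31 ± 0.11), and Ankrd1, which lay under the median gene (1.0 ± 0.11). The Ankrd1 call ended in 4 of the 6 fits without 1 array (0.94 to 1.0). With the mean of all probe sets the calls of Ankrd1 (0.97), Axl (0.98) and Tpm1 (1.0 after rounding, just under the threshold) ended. Srf itself read 7.73, 7.53 and 7.77 against 6.29, 6.66 and 6.53 (1.18 ± 0.1, adjusted p = 4.68e-08). It differed by 0.64 with the mean of its 2 probe sets. Ajuba differed by 0.66 ± 0.07, under the fold threshold. Yap1, the gene of YAP itself, differed by 0.08, Wwtr1 by -0.27 and Lats2 by 0.04, and none of them was called.

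The CArG box is the sequence to which Srf binds. It was searched after the values had been seen, as CC, then 6 letters that are A or T, then GG, a pattern that reads the same on both strands. It was present in 4 of the 22 genes of the list with a promoter in the RefSeq table (18.2%), and in 488 of all 27025 genes of that table (1.81%). The 4 were Cnn2, Myl9 and Srf, which were called higher, and Vcl, vinculin, which was not called in the reported fit and passed the threshold under 4 alternatives (1.0 to 1.08). The promoters of the first 3 are shown because each holds a match and was called, as 250 bases before the start with CArG matches in capitals. Myl9, a myosin light chain, lies at chr2:156775214-156775463 on the plus strand with the match 161 bases before the start, Srf at chr17:46556163-46556412 on the minus strand with matches at 82 and 62 bases, and Cnn2, calponin 2, at chr10:79988350-79988599 on the plus strand with the match at 56 bases (all GRCm38.p6, RefSeq). The other called genes of the list with a promoter in the RefSeq table, Acta2, Cald1 and Ccn1 among them, held no match. A match of letters is not evidence of binding in these cells.

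Myl9: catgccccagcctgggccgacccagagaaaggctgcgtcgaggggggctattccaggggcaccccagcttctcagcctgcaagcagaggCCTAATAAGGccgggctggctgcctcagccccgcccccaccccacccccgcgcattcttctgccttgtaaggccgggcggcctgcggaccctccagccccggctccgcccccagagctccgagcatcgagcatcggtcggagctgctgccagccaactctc
Srf: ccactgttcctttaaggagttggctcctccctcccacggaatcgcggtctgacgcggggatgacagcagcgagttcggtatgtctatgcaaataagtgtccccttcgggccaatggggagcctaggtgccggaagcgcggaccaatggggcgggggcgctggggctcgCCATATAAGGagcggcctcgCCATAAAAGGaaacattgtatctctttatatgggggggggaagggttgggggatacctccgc
Cnn2: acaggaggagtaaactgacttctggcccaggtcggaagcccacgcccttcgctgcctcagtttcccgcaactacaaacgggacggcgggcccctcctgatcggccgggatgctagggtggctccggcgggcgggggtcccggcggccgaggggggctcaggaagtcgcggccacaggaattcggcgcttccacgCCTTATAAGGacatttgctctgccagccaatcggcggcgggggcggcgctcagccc

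Beside these sequences, Myl9 read 8.04, 8.06 and 8.16 in IP14D-1 and 6.36, 6.39 and 6.13 in IP20D-3 (1.79 ± 0.11), and Cnn2 read 9.59, 9.39 and 9.74 against 8.01, 7.73 and 7.25 (1.91 ± 0.14). Both were above in every IP14D-1 array, like all genes called higher.

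Markers of fibroblasts, the cells used as feeders, moved in the same direction. Of 35 measured, 13 were called higher in IP14D-1 and 1 lower (40% called, against 4.96% of all genes, median 0.67). The list shares no gene with the contractile list. Their summed linear intensity was 6588 to 6952 over the IP14D-1 arrays and 4512 to 4768 over those of IP20D-3. In both lines 21 of the 35 lay under the median gene, Col1a1, Col3a1, Cdh11, Thy1 and Postn among them, whereas Lox (6.97) and Col1a2 (6.0) were above it in IP14D-1. Col1a1, type I collagen, read 5.4, 6.1 and 5.58 against 4.63, 4.58 and 4.44 (1.14 ± 0.14), and was not called without IP14D-1 replicate 2 (0.94). Col3a1, type III collagen, read 4.62, 5.56 and 4.78 against 3.26, 3.12 and 3.05 (1.84 ± 0.19), and was not called with the mean of its probe sets (0.91). Cdh11, a mesenchymal cadherin, read 3.94, 3.93 and 3.85 against 2.51, 2.54 and 2.43 (1.41 ± 0.15), and its probe sets averaged 0.66. Thy1, a fibroblast surface antigen, differed by 0.2 ± 0.11 and Postn, periostin, by 0.78 ± 0.14, and neither was called. Lox, the collagen cross-linking enzyme, gave the largest difference of the list, with 6.92, 6.98 and 7.0 against 3.93, 4.07 and 3.81 (3.03 ± 0.17, 8.19-fold). Col5a2 (2.57 ± 0.23), Bgn, the proteoglycan biglycan (1.94 ± 0.13), and Vim, vimentin (1.56 ± 0.08), were higher, Fn1, fibronectin, differed by -0.06 ± 0.08, and Fbln5, an elastic fibre protein, was lower (-1.71 ± 0.17, or -0.88 and not called with the mean of its probe sets).

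Fewer fibroblasts and less of these transcripts per cell cannot be told apart in RNA from whole cultures. With only genes at or above the median level tested, 2 members of the fibroblast list were called, and with 16 added to every intensity, 9. Their part in the contractile result, and in the other groups higher in IP14D-1, was not tested. Across lines, the mean level of the fibroblast list was 5.67 in IP14D-1, 5.44 in ESC2, 5.17 in IP14D-101, 5.28 in R1, 4.94 in IP36D-3 and 4.85 in IP20D-3. That of the contractile list was 8.69, 8.47, 7.71, 9.0, 7.85 and 7.29 in the same order, so IP20D-3 was the lowest line for both and the highest was IP14D-1 for the fibroblast list and R1 for the contractile list.

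**Figure D4:**
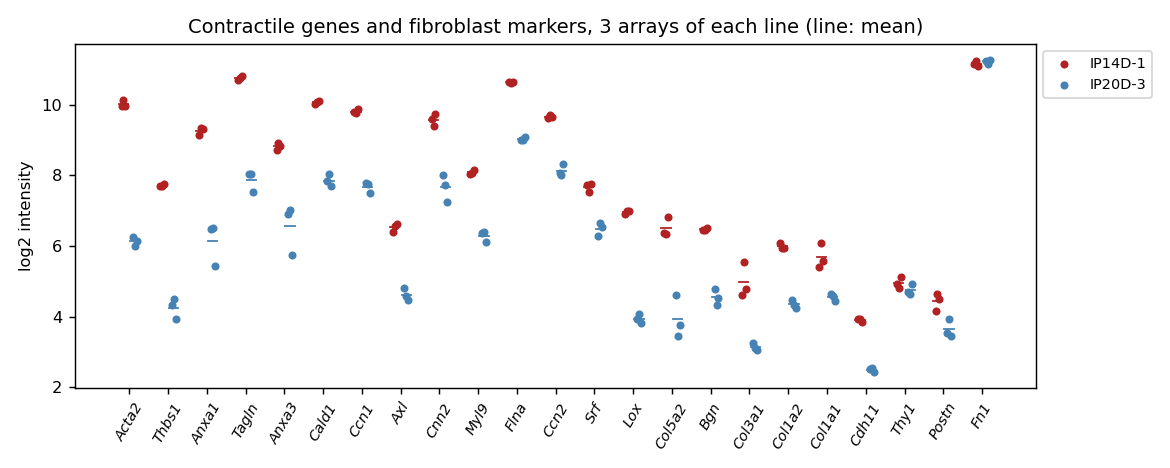
Log2 intensity of 13 contractile, Srf or YAP target genes (Acta2 to Srf) and 10 fibroblast markers (Lox to Fn1) on each of the 3 arrays of IP14D-1 (red) and IP20D-3 (blue), with short lines at the means. The contractile genes are higher in all IP14D-1 arrays, Col1a1 and Col3a1 are under the median gene (5.91) by their means in both lines, and Fn1 differs by -0.06.

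Epithelial keratins were also higher in IP14D-1. Krt8, the partner of Krt18 in simple epithelia, read 10.12, 10.09 and 10.06 against 8.21, 8.13 and 7.52 (2.13 ± 0.14, 4.39-fold). Krt19 was barely past the threshold (1.01 ± 0.13) and lost its call without IP14D-1 replicate 2 or 3 or IP20D-3 replicate 3 (0.85 for the last). Cdh1, E-cadherin, differed by 0.67 ± 0.07, and Rab25, a GTPase of epithelial recycling, was lower (6.83, 6.69 and 6.86 against 8.04, 8.22 and 8.14, -1.34 ± 0.1). In the basement membrane, the type IV collagens Col4a1 (8.04, 8.09 and 8.02 against 6.29, 6.31 and 6.26, 1.76 ± 0.08) and Col4a2 (1.73 ± 0.18) were higher and the laminin chain Lama1 was lower (6.75, 6.76 and 6.72 against 8.11, 8.02 and 8.06, -1.32 ± 0.07). The endoderm factor Sox7 was lower as well (-1.41 ± 0.18), under the median gene in both lines. Its call ended with the mean of its probe sets (-0.98) and with 16 added to the intensities (-0.93). Most calls in the lineage lists were higher in IP14D-1. Primitive streak and mesoderm had 4 of 28 genes higher (14.3%), neuroectoderm 3 of 25 (12%) and trophectoderm 4 of 23 (17.4%), with 0 lower in each, against 2.15% of all genes called higher. The 4 of trophectoderm were Krt8, Krt18, Krt19 and Cdx2, and of the 28 streak and mesoderm genes 23 lay under the median gene in both lines. Primitive and visceral endoderm had 3 of 29 higher and 3 lower (20.7% called, against 4.96% of all genes called in either direction). Among them were the collagens, Lama1 and Sox7 given above. Of 32 Hox genes 0 were called by limma, and 13 had an adjusted p under 0.05 alone, as did 46.7% of all genes.

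Genes of amino acid supply went the other way. In IP14D-1 0 of 31 genes of serine, one-carbon and amino acid supply were higher and 4 were lower (12.9% called, against 4.96% of all genes). The median was -0.34, and 17 were lower at an adjusted p under 0.05 alone against 24.3% of all genes. Aldh1l2, a mitochondrial folate enzyme, read 5.83, 6.21 and 4.86 in IP14D-1 and 7.68, 7.7 and 8.19 in IP20D-3 (-2.22 ± 0.23, 4.66-fold). Cth, which makes cysteine from cystathionine, read 10.67, 10.83 and 10.39 against 11.98, 12 and 12.23 (-1.44 ± 0.09). Psph, the last enzyme of serine synthesis, read 9.44, 9.65 and 9.26 against 10.64, 10.64 and 10.8 (-1.24 ± 0.09). IP14D-1 replicate 3 was the lowest array for each. The arginine transporter Slc7a1 was just past the threshold (-1.02 ± 0.13) and was not called without that array (-0.83) or without IP20D-3 replicate 1 (-0.99). The 3 Slc7a1 probe sets ranged from -1.6 to -0.67. Phgdh and Psat1, the earlier enzymes of serine synthesis, each differed by -0.42 and were not called. Of 19 aminoacyl-tRNA synthetases, which load amino acids onto tRNA, 13 were lower at an adjusted p under 0.05 alone, against 24.3% of all genes. By the same measure 1 was higher, and the median of the list was -0.43. Only Sars, for serine, passed the fold threshold (-1.02 ± 0.1), and the list's count was 0 without IP14D-1 replicate 3 or IP20D-3 replicate 3 and 2 without IP14D-1 replicate 2.

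Nupr1, a stress-induced chromatin protein, read 9.44, 10.23 and 8.72 in IP14D-1 and 11.31, 11.3 and 11.36 in IP20D-3, a 3.64-fold difference (-1.86 ± 0.28, adjusted p = 2.31e-05). The IP14D-1 arrays were widely spread and all lay under those of IP20D-3. It was the only member called lower in the list of endoplasmic reticulum and amino acid stress, of whose 33 genes 1 was higher and 1 lower (6.06%, against 4.96% of all genes). Atf4, the transcription factor of this response, differed by -0.25 ± 0.11, Asns, asparagine synthetase and its target, by -0.78 ± 0.08, Trib3 by -0.88 ± 0.26, Ddit3 by -0.4 ± 0.23 and Chac1 by 0.25 ± 0.31, and none of them was called. Without IP14D-1 replicate 1 or 2, Trib3 passed the threshold (-1.01 and -1.11). Calr, the endoplasmic reticulum chaperone calreticulin, was the 1 gene called higher (1.13 ± 0.09). Mean Nupr1 in the other lines ran from 5.65 in ESC2 to 8.05 in IP36D-3, so both lines compared here were above them.

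The Nupr1 promoter, at chr7:126625471-126625720 on the minus strand of GRCm38.p6 (RefSeq), is shown because Nupr1 was the called gene of these 3 lists that held a match to the core of the amino acid response element, TGATGCAA, bound by Atf4. The match, on the reverse strand, is in capitals and begins 110 bases before the start. On either strand the core was present in 13 of 67 genes of the stress, supply and synthetase lists (19.4%). It was present in 279 of all 27025 genes of the promoter table (1.03%). The other 12 of the 13 list genes were not called.

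Nupr1: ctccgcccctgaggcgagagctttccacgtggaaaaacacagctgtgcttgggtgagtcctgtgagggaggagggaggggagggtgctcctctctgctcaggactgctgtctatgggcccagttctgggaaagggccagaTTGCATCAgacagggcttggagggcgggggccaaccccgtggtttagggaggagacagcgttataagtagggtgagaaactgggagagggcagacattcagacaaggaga

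Energy metabolism showed single genes rather than whole pathways past the threshold. For glycolysis and hypoxia 3 of 33 genes were higher and 0 lower (9.09% called, against 4.96% of all genes, median 0.32). Slc16a3, a lactate exporter, read 7.9, 7.46 and 8.19 against 4.71, 4.86 and 5.21 (2.92 ± 0.15, 7.58-fold). Slc2a1, the glucose transporter Glut1, read 11.44, 11.45 and 11.64 against 9.66, 9.75 and 9.29 (1.94 ± 0.1). Pfkl, a phosphofructokinase subunit, differed by 1.13 ± 0.09, or by 0.72 with the mean of its probe sets. In oxidative phosphorylation, Cycs, cytochrome c, was higher (11.93, 11.85 and 11.84 against 10.3, 10.38 and 10.08, 1.62 ± 0.08), while the list's median was -0.23. At an adjusted p under 0.05 alone 14 of the 26 genes were lower, against 24.3% of all genes. With the mean of its probe sets Cycs was not called (0.89). In cholesterol and fatty acid synthesis 3 of 32 genes were higher and 2 lower (15.6% called). Dhcr7 (1.37 ± 0.1) and Ebp (-1.34 ± 0.08), both enzymes of late sterol synthesis, went in opposite directions.

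Of 29 p53 targets and cell-cycle inhibitors, 3 were higher in IP14D-1 and 1 was lower (13.8% called, against 4.96% of all genes). The 3 higher genes were all inhibitors. Cdkn2b, the inhibitor p15, read 7.06, 7.64 and 7.2 against 4.77, 5.03 and 5.04 (2.36 ± 0.15, 5.12-fold). Cdkn1a, the inhibitor p21, read 9.05, 9.11 and 9.0 against 7.34, 7.34 and 7.61 (1.62 ± 0.09), and its probe sets averaged 0.91, under the threshold. Cdkn2a, under the median gene in both lines, differed by 1.2 ± 0.16, or by 0.64 and not called with 16 added to the intensities. Among other p53 targets Rrm2b, a ribonucleotide reductase subunit, was lower (6.54, 6.87 and 6.57 against 8.11, 8.31 and 8.2, -1.54 ± 0.13) and Mdm2 differed by 0.62 ± 0.09 without a call. Of 26 immediate-early genes 7 were higher and 0 lower (26.9% called), including Jun (1.34 ± 0.09), Ptgs2 (2.0 ± 0.2) and the contractile list's Srf, Ccn1 and Ccn2. Of 32 interferon and MHC genes 4 were higher (12.5% called), led by Gbp2, a guanylate-binding protein, with 6.4, 6.32 and 6.53 against 3.8, 4.12 and 3.88 (2.48 ± 0.13). The small heat shock protein Cryab differed by 2.42 ± 0.18.

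Of 31 germline genes 16.1% were called, against 4.96% of all genes, and most of those called were lower in IP14D-1. Tex14, needed for germ cell bridges, read 7.35, 7.74 and 7.38 against 9.13, 9.24 and 9.16 (-1.68 ± 0.11). Piwil2, a piRNA-binding protein, read 6.66, 6.75 and 6.41 against 8.04, 8.18 and 8.35 (-1.59 ± 0.12). Prdm1 (-1.21 ± 0.11), a specifier of germ cells, and Tdrd12 (-1.11 ± 0.09), a piRNA pathway gene, were lower, which makes 4 of 31. The 1 higher gene was Rhox5, a homeobox gene of the X chromosome, with 9.56, 9.56 and 9.68 against 7.63, 7.52 and 7.18 (2.16 ± 0.1). Of 12 X inactivation and Y-linked genes 0 were called, and 5 had an adjusted p under 0.05 alone, as did 46.7% of all genes. Xist read 6.88, 7.25 and 7.1 against 7.23, 7.64 and 7.71 (-0.45 ± 0.18, adjusted p = 0.0542) by its brightest probe set. Its 2 other probe sets lay near the bottom of the scale, with means from 2.51 to 2.63 in the 2 lines.

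**Figure D5:**
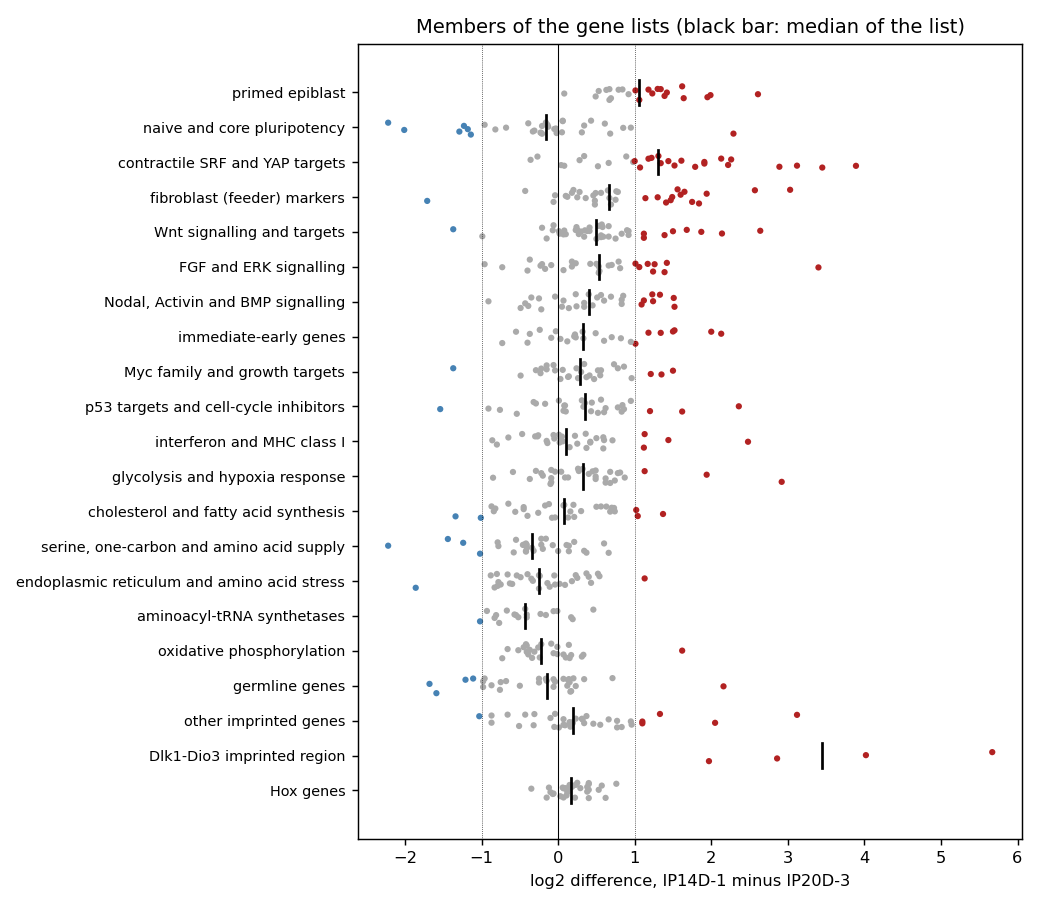
Log2 difference (IP14D-1 minus IP20D-3) of each measured member of 21 gene lists, with the list's median as a black bar, called genes in red (higher) or blue (lower), others in grey, and dotted lines at -1 and 1. Medians run from -0.43 for the aminoacyl-tRNA synthetases to 1.31 for the contractile genes and 3.44 for the Dlk1-Dio3 region.

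Some of the largest differences belonged to no list. Cap1, which recycles actin monomers, read 9.02, 8.93 and 8.98 in IP14D-1 and 4.87, 5.81 and 6.01 in IP20D-3, a 10.7-fold difference (3.42 ± 0.18, adjusted p = 1.83e-10). The other 4 lines had mean Cap1 levels of 8.77 to 10.07, so the low level was that of IP20D-3 alone among the 6, and both of its probe sets showed it (3.37 and 3.42). Prss23, a secreted serine protease, read 7.35, 7.39 and 7.05 against 3.14, 3.72 and 3.49 (3.81 ± 0.2). Rbm45, an RNA-binding protein gene, read 8.98, 9.16 and 9.06 against 6.05, 5.77 and 6.36 (3.01 ± 0.18), and IP36D-3 (6.43) was low with IP20D-3, whereas the remaining lines had 8.7 to 9.9. Trib2, a pseudokinase, differed by 2.9 ± 0.14.

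In the other direction, Catsperz, a sperm ion channel subunit gene, read 4.66, 4.66 and 4.16 in IP14D-1 and 7.51, 7.7 and 7.62 in IP20D-3, an 8.67-fold difference (-3.12 ± 0.14, adjusted p = 2.9e-11). Atp12a, a proton pump of epithelia, read 5.41, 5.76 and 4.64 against 7.89, 8.06 and 8.19 (-2.78 ± 0.26), and the other 4 lines had 3.92 to 4.24. Hhip, an antagonist of hedgehog ligands, read 4.3, 4.48 and 4.04 against 6.22, 6.66 and 7.03 (-2.37 ± 0.16), with 3.65 to 4.05 elsewhere. Both were thus high in IP20D-3 and under the IP14D-1 level in the other lines. Zmat4 (-3.04 ± 0.17), Serpinb6c (-2.84 ± 0.11), Mia (-2.58 ± 0.12), Patl2 (-2.4 ± 0.14), Fetub (-2.36 ± 0.16), Ly6g6e (-2.26 ± 0.1), B4galnt2 (-2.25 ± 0.16) and Blnk, a B cell adaptor gene (-2.2 ± 0.14), were lower, with 1 of the 2 other Zmat4 probe sets going the other way. Lpl, lipoprotein lipase, read 6.19, 6.36 and 6.57 against 8.4, 8.61 and 8.77 (-2.22 ± 0.1), and IP36D-3 was near IP20D-3 at 8.19. Mitf, the melanocyte transcription factor, read 5.7, 5.83 and 5.72 against 8.08, 8.17 and 7.89 (-2.3 ± 0.11).

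Placed among all 6 lines, the called genes were mainly those in which IP20D-3 stood at an end. Of the 392 genes higher in IP14D-1, IP20D-3 had the lowest mean of the 6 lines in 303 and IP14D-1 the highest in 68, with both true of 45. Of the 510 lower in IP14D-1, IP20D-3 had the highest mean in 458 and IP14D-1 the lowest in 80, with both true of 53. These counts are a description, since the genes were chosen by their difference between IP20D-3 and IP14D-1.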

How the data were processed

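Biotin-labelled RNA of whole cultures was measured on Affymetrix mouse arrays. The deposited values are linear probe set intensities, which the authors computed with RMA per the submitters' processing notes and the series' design. Its version was not given in the sources used here. RMA normalises quantiles across arrays, so a change shared by most genes would not be seen. Array medians were 29.2 to 30.5 (linear). No read depth applies, and the 3 arrays per line limit the precision.

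The deposited intensities were taken to log2. Of 45101 probe sets, 64 controls were left out of the tests, 34945 had 1 symbol in the platform annotation (34741 found in RefSeq GRCm38.p6, 0 symbols changed), 932 had several and 9160 none. For each of 18193 genes (9010 with several probe sets) the brightest probe set on average over the 18 arrays was used. limma 3.58.1 (R 4.3.3) fitted 1 mean per line over all 18 arrays, and the contrast was IP14D-1 minus IP20D-3, with Benjamini-Hochberg adjustment over all genes. On simulated data for this contrast, 100% of 200 genes given a log2 change of 1.5 were called, and 0 unchanged genes were. The simulated noise was independent between arrays and genes, and the change lay well past the threshold. The outcome therefore checks the code only, and does not bear on calls near the threshold (median sizes of the called genes were 1.26 and -1.22). Python 3.11.15, pandas 2.3.3, numpy 2.4.6, scipy 1.17.1 and matplotlib 3.10.9 made the tables, permutation tests and plots.

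The rule for named genes took the 15 largest differences per direction among called genes (mean of at least 6 in the higher line, no array overlap, no clone symbols), up to 5 called members and the brightest member of each of 32 lists, and a fixed set of pluripotency, imprinted and methylation genes. A further 54 list members were named after their values were seen, as was the CArG box search. The comparison, the members and the lists were chosen with earlier results of these data known. Alternatives changed the arrays in the fit, replicate block, array weights, variance trend, pseudocount, scaling, level filter, probe set rule and fold threshold. Sequences come from RefSeq tables.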

Additional observations from a re-analysis of the deposited data

How the results depend on the processing

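Each choice was changed one at a time. The counts of 902 called genes (392 higher, 510 lower) were 1757 (700 and 1057) when every probe set was tested on its own, 588 (278 and 310) with 16 added to the intensities, 629 (311 and 318) for genes at or above the median level, and 647 (273 and 374) with the mean of a gene's probe sets. With no fold threshold they were 8501 (4085 and 4416), and with a log2 difference of at least 2 they were 81 (47 and 34). Leaving out each array in turn gave 880 to 984 called genes, 386 to 416 higher and 477 to 568 lower. The 3 scalings gave 361 to 447 higher and 441 to 561 lower, and array weights 383 and 532. The fits on 6 or 12 arrays and with a variance trend gave 902 genes. They leave the differences unchanged, and in the reported fit the fold threshold alone set the count. Their equal counts are therefore no sign of stability.

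The replicate number in the titles was not taken as a pairing. Deviations from the line means of same-numbered arrays correlated at 0.149, 0.06 and 0.007, and IP14D-1 replicate 3 correlated better with IP20D-3 replicate 2 (0.011). A fit with the replicate block also gave 902 genes (392 and 510), all shared with the fit without it. With the same replicate numbers in every line the block leaves the differences unchanged, so this count does not bear on a pairing.

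Over the 207 genes named and checked, 0 calls reversed under any of these alternatives. The mean of all probe sets ended 35 calls, 16 added to the intensities ended 21, array weights ended 7, and the 3 scalings 3 to 7. Leaving out single arrays ended those of Ankrd1, Cdh2, Col1a1, Grb10, Ier3, Krt19, Sars, Scap, Scd2, Slc7a1, Tm7sf2 and Wnt4, whose differences had sizes of 1.0 to 1.14. Under the mean of all probe sets the uncalled Klf5 (-0.15), Ctnnb1 (0.18), Npm1 (0.02), Slc2a3 (-0.08), Atf4 (0.01) and Mycn (-0.19) changed sign. The cause of these changes was not tested. Signal near background limits 391 of the 902 calls.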

Other observations

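Probe sets without a single symbol were outside the comparison. Of 10092 such probe sets 240 were called by the same rule (2.38%), 108 higher and 132 lower in IP14D-1, and they were not named.

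Called genes were spread over the chromosomes of the RefSeq table. Among genes at or above the median level the median difference was -0.1 over all chromosomes, from -0.26 on chromosome 8 and -0.21 on chromosome 16 to 0.07 on chromosome 6 (Y chromosome genes left aside). Chromosome 12, which holds the Dlk1-Dio3 region, had 11 of 622 genes called higher (1.77%, against 2.15% of all genes). It had 26 called lower (4.18%, against 2.8% of all genes). No test was made of these values.

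Genes of the 2-cell-stage list, whose transcripts mark a rare state of pluripotent cultures, had 1 of 10 called higher (10%, against 2.15% of all genes). This was Usp17la (1.18 ± 0.15), and 9 of the 10 were under the median gene in both lines. The most abundant heat shock gene of its list, Hsp90aa1, differed by 0.15 ± 0.08. That list had 2 genes higher and 1 lower of 22 (13.6% called, against 4.96% of all genes).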
